A study of Homo sapiens with 4 samples.

Results

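Contractile myofibroblast genes are 10 genes of the smooth-muscle type contractile apparatus, chosen by name: Acta2, Actg2, Myl9, Myh11, Tagln, Cnn1, Cald1, Tpm1, Tpm2 and Des. They are 10 of the 32285 mouse genes in the deposited matrices, and all 10 were found there. They were read in host cells growing around human breast lesions. MCF10DCIS.com, a human line that forms ductal carcinoma in situ, was seeded on decellularized mouse mammary matrix. The seeded matrix was cultured for 12 days and placed in the right or left fat pads of Rag1-deficient mice, and tumour with adjacent stroma was taken after 4 weeks. In the aged pool the matrix came from mice of at least 18 months, and in the young pool from mice of 2 to 3 months. The age is that of the matrix donor and not of the recipient, and recipients of both pools lacked Rag1 and with it mature T and B cells. Each pool is 1 expression library, so the spread between animals is unknown and no test or p-value is given. Intervals below are exact 95% intervals that cover counting error only.

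A myofibroblast is a fibroblast that builds bundles of actin filaments and pulls on the matrix around it. Such cells appear in healing wounds and in the stroma of tumours, and TGF-beta and a stiff matrix are known inducers. The same contractile genes are used by vascular smooth muscle and pericytes, which wrap blood vessels, and in the mammary gland by myoepithelial cells, so none of the genes marks a myofibroblast by itself. Acta2 (ENSMUSG00000035783) and Actg2 (ENSMUSG00000059430) encode the smooth muscle alpha and gamma actins. Myh11 (ENSMUSG00000018830) encodes the smooth muscle myosin heavy chain, and Myl9 (ENSMUSG00000067818) a regulatory light chain. Tagln (ENSMUSG00000032085), Cnn1 (ENSMUSG00000001349) and Cald1 (ENSMUSG00000029761) encode transgelin, calponin and caldesmon, which bind actin filaments. Tpm1 (ENSMUSG00000032366) and Tpm2 (ENSMUSG00000028464) encode tropomyosins, which lie along the filament. Des (ENSMUSG00000026208) encodes desmin, the intermediate filament protein of muscle.

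After filtering, 12906 mouse cells of the aged pool and 11937 of the young pool remained, with medians of 2256 and 2285 unique molecular identifiers (UMIs). Neutrophil-like cells were 76.7% of the aged pool's mouse cells and 79.9% of the young pool's, and the stromal clusters were 8.62% and 6.01%. The pools shared 190 barcode sequences. Levels are given as CPM, the UMIs of a gene as counts per 1000000 mouse gene UMIs of that class in that pool. A 3′ UMI counts a molecule once whatever its length, so levels of different genes can be set side by side.

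The stromal cells were split again, and the splits are called by their genes. The Spp1-high cells, 363 in the aged pool and 325 in the young pool, were clusters 0, 3, 7 and 9 of that split. Over both pools Spp1, which encodes osteopontin, stood at 34724 CPM in cluster 0, 12287 in cluster 3, 24056 in cluster 7 and 31317 in cluster 9, against 64.9 CPM in Pi16/Dpt and 55.5 CPM in Cpxm1/Cxcl12 fibroblasts. The fibroblast collagen Col1a1 was unequal among them: 998 CPM in cluster 0 and 592 CPM in cluster 9, but 13821 CPM in cluster 3 and 3811 CPM in cluster 7. Clusters 0 and 9 were therefore low in the collagen that usually marks a fibroblast, and "Spp1-high" is used here for the gene and not as a cell type. The Pi16/Dpt fibroblasts (217 aged and 141 young cells) had 8581 CPM of Col1a1, and the Cpxm1/Cxcl12 fibroblasts (138 and 42 cells) 5101 CPM.

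The 10 genes were stromal genes in these libraries. Stromal clusters were 7.37% of all mouse cells and held between 91.4% of the UMIs of Tpm1 and 98.8% of those of Tagln. These cells were deep, so their share of all UMIs was larger than their share of cells. Over all genes they held 29665855 of 70483213 mouse gene UMIs in the aged and 23280771 of 64902510 in the young pool. Of these, Spp1-high cells held 13302419 and 14021287, and pericyte-like cells 543540 and 242896. Spp1-high cells, 2.77% of mouse cells, held 59.7% of the Acta2 UMIs, 66.7% of Tagln, 70.1% of Cnn1, 72.3% of Tpm2 and 63.8% of Cald1. Des was the exception. The 54 pericyte-like cells, 0.217% of mouse cells, held 53.0% of its UMIs, against 38.4% in Spp1-high cells, and they also held 20.7% of the Myh11 UMIs. All 10 fixed pericyte markers were detected in that cluster, with Rgs5, a regulator of G-protein signalling typical of pericytes, at 5385 CPM.

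**Figure D1:**
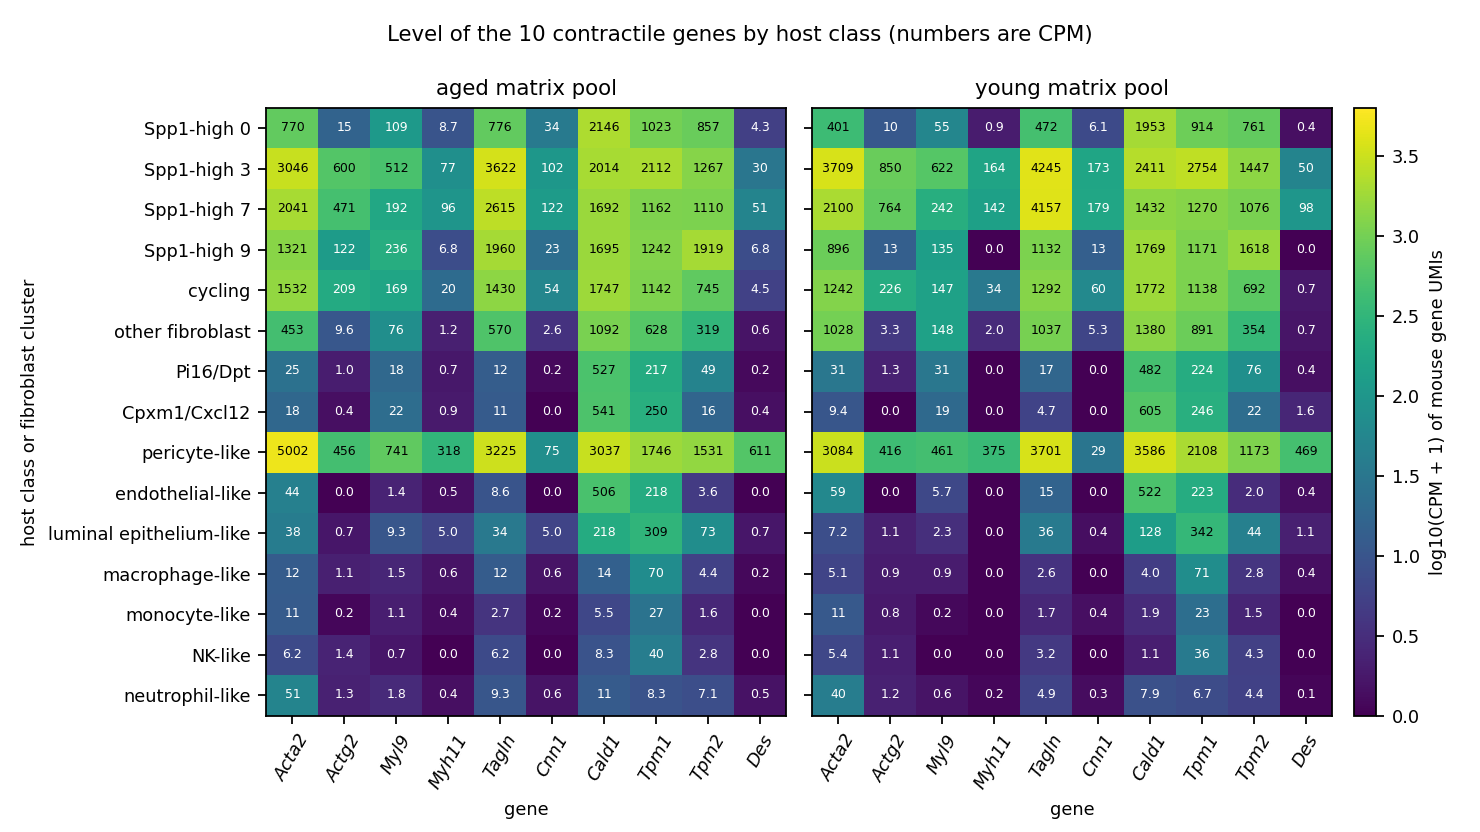
Level of the 10 genes in 15 host classes or clusters (vertical) of the aged pool (left) and the young pool (right), with the CPM printed in each cell and colour giving log10(CPM + 1). The pericyte-like cells and Spp1-high clusters 3 and 7 are the brightest for Acta2 and Tagln in both pools, while Cald1 and Tpm1 stay above 200 CPM in Pi16/Dpt, Cpxm1/Cxcl12 and endothelial-like cells.

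Among the actins, Acta2 was highest in pericyte-like cells of the aged pool, at 5002 CPM, and in Spp1-high cluster 3 of the young pool, at 3709 CPM. In cluster 3 of the aged pool it stood at 3046 CPM, and in pericyte-like cells of the young pool at 3084 CPM. Its order at the top thus differed between the pools, and the pericyte-like values rest on 37 aged and 17 young cells. Cluster 7 followed with 2041 CPM in the aged and 2100 CPM in the young pool. Cluster 0 had 770 and 401 CPM, and cluster 9 had 1321 and 896 CPM. Actg2 followed a narrower pattern. It was highest in cluster 3, with 600 CPM in the aged and 850 CPM in the young pool, then in cluster 7, with 471 and 764 CPM, and stood at only 15.4 and 10.1 CPM in cluster 0. Cluster 3 alone held 42.7% of all its UMIs.

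Myosin genes showed the same top classes. Myl9 stood at 741 CPM in aged and 461 CPM in young pericyte-like cells, and at 512 and 622 CPM in cluster 3. Myh11 was a gene of the pericyte-like cells first, with 318 and 375 CPM, then of clusters 3 and 7, with 76.8 and 164 CPM in cluster 3 and 95.8 and 142 CPM in cluster 7. In cluster 0 Myh11 had 8.67 CPM in the aged and 0.938 CPM in the young pool.

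Of the actin-binding genes, Tagln was at 3622 CPM in aged and 4245 CPM in young cells of cluster 3, and at 3225 and 3701 CPM in pericyte-like cells. Cnn1 was higher in cluster 7 (122 CPM aged, 179 CPM young) and cluster 3 (102 and 173 CPM) than in pericyte-like cells, where 41 and 7 UMIs made 75.4 and 28.8 CPM. Over the 4 Spp1-high clusters Cald1 was the most even of the 10. It ranged between 1692 and 2146 CPM over these clusters of the aged pool and between 1432 and 2411 CPM in the young pool, and it was still 506 and 522 CPM in endothelial-like cells. Over all classes its span was wider, between 5.54 and 3037 CPM in the aged and between 1.08 and 3586 CPM in the young pool. Its product exists in a smooth muscle form and a form found in most cells, which a 3′ count does not separate.

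The tropomyosins parted from each other. Tpm1 was highest in cluster 3, at 2112 CPM in the aged and 2754 CPM in the young pool. Tpm2 was highest in cluster 9, at 1919 and 1618 CPM, which are 27 and 21 cells led by S100a4, Hmga1 and Sncg. Outside the stroma Tpm1 was kept in luminal epithelium-like cells (309 and 342 CPM) and macrophage-like cells (70.3 and 70.8 CPM), and Tpm2 was far lower in macrophage-like cells (4.40 and 2.83 CPM). Des stood at 611 and 469 CPM in pericyte-like cells and below 100 CPM in each Spp1-high cluster.

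The Pi16/Dpt and Cpxm1/Cxcl12 fibroblasts carried little of the set. Summed over the 10 genes, Spp1-high cells had 7778 CPM in the aged pool, against 851 CPM in Pi16/Dpt and 860 CPM in Cpxm1/Cxcl12 fibroblasts. In the young pool the sums were 6049 CPM in Spp1-high cells, 863 CPM in Pi16/Dpt and 907 CPM in Cpxm1/Cxcl12 fibroblasts. Of all genes measured, 25.7% in the aged and 25.5% in the young pool were at least 1.5-fold higher in Spp1-high than in Pi16/Dpt cells, and 30.7% and 29.6% than in Cpxm1/Cxcl12 cells. The clusters were made from variable genes, chosen anew for the split of the stroma. In the first clustering 9 of the 10 were among those used, and for the split the number was not recorded. These differences thus describe the clusters and test nothing.

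The gap between Spp1-high and Pi16/Dpt cells was unequal across the set. It was small for Cald1, 3.90-fold in the aged and 4.09-fold in the young pool, and for Tpm1, 5.82-fold and 4.96-fold. For Tpm2 it was 20.4-fold and 11.3-fold, for Acta2 55.7-fold (45.8 to 68.4) and 25.8-fold (20.4 to 33.1), and for Tagln 129-fold (97.9 to 174) and 58.8-fold (43.0 to 82.8). Cnn1 had 1 UMI in aged Pi16/Dpt cells, which gives 233-fold with an interval of 41.6 to 9205, and 0 UMIs in young ones, where a floor of 3 UMIs over the class makes it at least 22.4-fold higher in Spp1-high cells. Actg2 had 4 and 3 UMIs in Pi16/Dpt cells. What these fibroblasts kept of the set was thus mainly Cald1, at 527 and 482 CPM, and Tpm1, at 217 and 224 CPM.

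In Cpxm1/Cxcl12 fibroblasts Cald1 stood at 541 CPM in the aged and 605 CPM in the young pool, and Tpm1 at 250 and 246 CPM. Acta2 had 40 and 6 UMIs there (17.7 and 9.45 CPM), Tagln 26 and 3 UMIs, and Cnn1 none in either pool. With 42 cells, the young values other than those of Cald1 and Tpm1 rest on at most 14 UMIs a gene.

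Shares of cells were compared after thinning each cell to 2000 UMIs, with shallower cells left out. An Acta2 UMI was then found in 53.1% of aged and 39.9% of young Spp1-high cells, and before thinning in 79.6% and 76.0%. In Pi16/Dpt fibroblasts the thinned shares were 3.70% and 5.67%, in Cpxm1/Cxcl12 fibroblasts 3.65% and 4.76%, and in macrophage-like cells 2.07% and 1.54%. Neutrophil-like cells, which should lack smooth muscle actin, had 8.18% and 6.76%. Those shares rest on the 4756 of 9899 aged and 4912 of 9536 young cells that were deep enough to thin. Over all cells of the class the median depths were 1960 and 2034 UMIs, against 18564 and 15292 UMIs in Pi16/Dpt cells. Thinning leaves out many shallow neutrophil-like cells and cuts the fibroblasts deeply, so these thinned shares do not rank the classes. Human barcodes held mouse Acta2 UMIs in 6.20% and 3.70% of cells at median depths of 31098 and 31547 UMIs, and unthinned Pi16/Dpt fibroblasts in 13.8% and 16.3%. Per cell, Pi16/Dpt fibroblasts had 0.465 Acta2 UMIs in the aged and 0.504 in the young pool, against 0.119 and 0.0566 in macrophage-like cells and 0.117 and 0.0977 in neutrophil-like cells. Those counts are not corrected for depth. Of their class UMIs, Pi16/Dpt fibroblasts had 101 of 4073733 and 71 of 2288763 on Acta2. Neutrophil-like cells had more per UMI in both pools, 1161 of 22881636 and 932 of 23207752. Macrophage-like cells had fewer, 61 of 5231677 and 27 of 5296069. Cald1 was different. It was found in 92.8% and 95.6% of thinned Spp1-high cells and still in 59.7% and 56.0% of Pi16/Dpt cells, against 2.04% and 1.36% of neutrophil-like cells. Tpm1 was found in 27.3% and 33.3% of Pi16/Dpt cells, against 1.58% and 1.26% of neutrophil-like cells. Actg2 was found in 18.3% of aged and 10.6% of young Spp1-high cells and in 0 of 216 and 0 of 141 Pi16/Dpt cells.

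**Figure D2:**
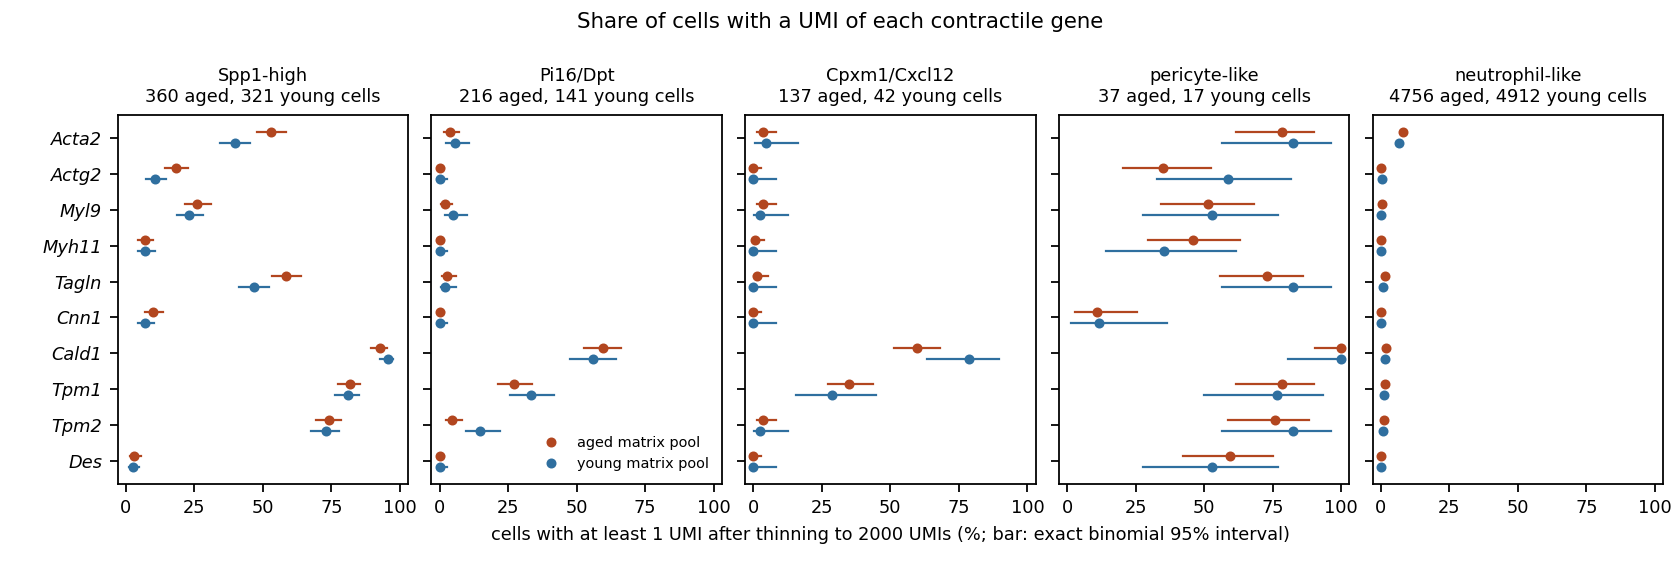
Percent of cells with at least 1 UMI of each gene after thinning to 2000 UMIs (horizontal, with exact binomial 95% intervals) in 5 classes, aged and young pools. Cald1, Tpm1 and Tpm2 are found in over 70% of Spp1-high cells of both pools, while in Pi16/Dpt and Cpxm1/Cxcl12 fibroblasts Cald1 and Tpm1 are the only genes above 20%.

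The ratio of Acta2 to Tagln differed between classes. Neutrophil-like cells had 5.48 Acta2 UMIs for each Tagln UMI in the aged pool (4.73 to 6.37) and 8.18 in the young pool (6.72 to 10.0), and human barcodes 1.76 and 1.83. Spp1-high cells had 0.872 and 0.798, and pericyte-like cells 1.55 and 0.833. The source of the Acta2 UMIs in neutrophil-like cells was not tested.

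Within Spp1-high cells the UMIs of the genes were spread unevenly over cells, in counts not corrected for depth. Most cells still held some of several genes. Before thinning, a Tagln UMI was found in 84.3% of aged and 81.8% of young cells. In the aged pool 30 of 363 cells held 50% of the Acta2 UMIs, 34 cells that of Tagln, 10 cells that of Actg2 and 4 cells that of Des. In the young pool 20 of 325 cells held 50% of the Acta2 UMIs, 21 that of Tagln, 6 that of Actg2 and 2 that of Des. Cald1 was spread over many cells, 78 in the aged and 77 in the young pool, and Tpm1 over 69 in each. After thinning, at least 5 of the 10 genes were found in 43.6% of aged Spp1-high cells (157 of 360) and 30.5% of young ones (98 of 321). Whether that is more than the genes' own shares would give was not tested. The share was 62.3% and 69.2% in cluster 3, 23.8% and 13.1% in cluster 0, and 70.3% and 82.4% in pericyte-like cells. No thinned Pi16/Dpt, Cpxm1/Cxcl12 or neutrophil-like cell reached 5 genes, which over 216 aged and 141 young Pi16/Dpt cells allows shares of up to 1.69% and 2.58%.

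**Figure D3:**
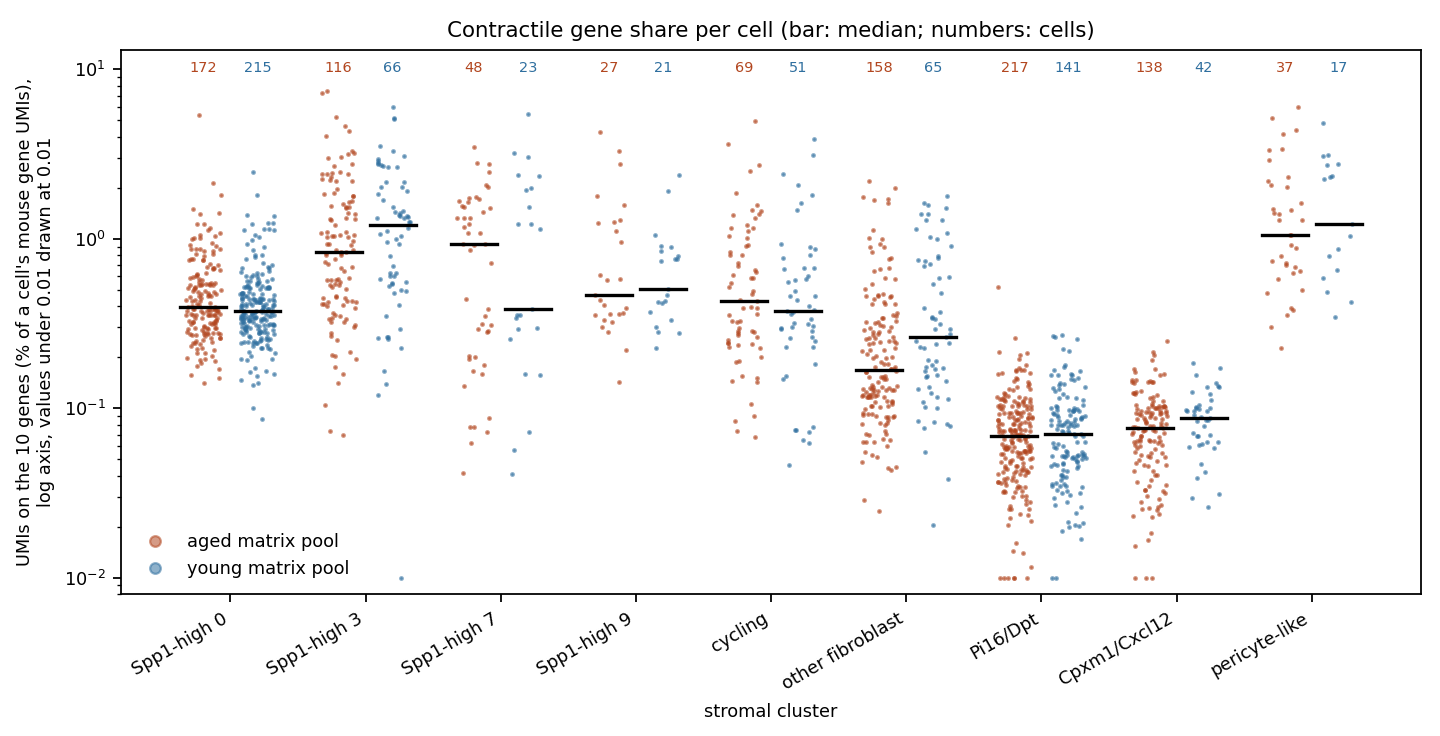
Percent of each cell's mouse gene UMIs that fell on the 10 genes (vertical, log axis, values under 0.01 drawn at 0.01), 1 point a cell by stromal cluster, aged pool left of young pool, bar at the median. The medians are 0.837% and 1.20% in Spp1-high cluster 3, 0.396% and 0.374% in cluster 0, and 0.0683% and 0.0709% in Pi16/Dpt fibroblasts.

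Between the pools, 5 of the 9 measured genes were at least 1.5-fold higher in Spp1-high cells of the aged pool. Acta2 stood at 1381 CPM in the aged and 801 CPM in the young pool, a ratio of 1.73 (1.69 to 1.77). Tagln had 1584 and 1003 CPM (ratio 1.58), Myl9 203 and 119 CPM (1.71), Cnn1 57.1 and 29.4 CPM (1.94) and Actg2 185 and 122 CPM (1.52). The more general filament genes differed less: Tpm1 had 1263 and 1112 CPM (1.14), Tpm2 1002 and 863 CPM (1.16) and Cald1 2056 and 1970 CPM (1.04). Myh11, at 31.6 and 22.4 CPM, had a ratio of 1.41, and Des, at 14.6 and 9.20 CPM, had a ratio of 1.59 but was under the 20 CPM set for a gene to count as measured. Of the 9, 0 passed 1.5-fold downwards, and 1.95% and 0.656% of the 5638 genes measured in these cells passed upwards and downwards. All 10 ratios were above 1, as were those of 46.8% of the measured genes. The median log2 ratio of the 9 was 0.61, against -0.01 over all measured genes. With every cell weighted alike in place of every UMI, 1 gene, Cnn1, stayed at 1.5-fold, and Acta2 had a ratio of 1.37.

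**Figure D4:**
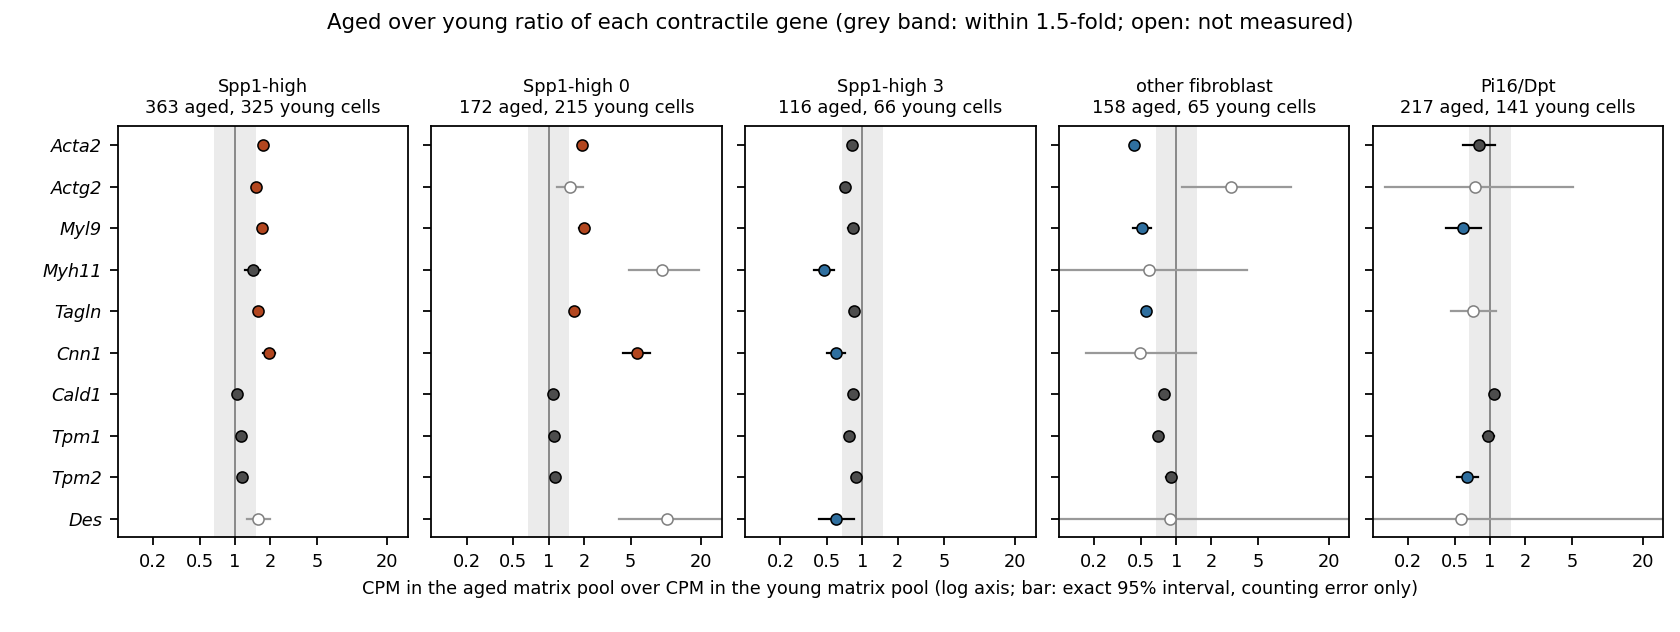
Aged over young ratio of CPM for each gene (horizontal, log axis, with exact 95% intervals for counting error only, those wider than the axis running off it) in 5 classes, with the grey band covering ratios within 1.5-fold and open points genes not measured; a gene at 0 in a pool has no point. Points lie right of 1 in Spp1-high cells and in their cluster 0, left of 1 in cluster 3 and, for 9 of 10 genes, left of 1 in the other fibroblasts.

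The make-up of the Spp1-high cells differed between the pools as well. Cluster 0, which was low in contractile genes, was 47.4% of aged (42.1 to 52.7) and 66.2% of young Spp1-high cells (60.7 to 71.3). Cluster 3 was 32.0% and 20.3%, cluster 7 was 13.2% and 7.08%, and cluster 9 was 7.44% and 6.46%. Since genes of the set helped to make these clusters, the cells were clustered again without the 10 genes. The contractile cluster that most resembled cluster 3 was then 32.4% of aged and 18.3% of young Spp1-high cells, and the counterpart of cluster 0 was 54.9% and 70.5%.

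The comparison was then repeated with the mix of clusters held equal in both pools. The mix here is each cluster's share of the UMIs of Spp1-high cells and not of the cells. By UMIs, cluster 0 was 65.9% of the aged and 83.6% of the young pool's Spp1-high cells, and cluster 3 was 20.1% and 9.54%. For the sum of the 10 genes the ratio was 1.29 as measured, 1.0 at the aged pool's mix and 1.11 at the young pool's mix. Acta2 had 1.73 as measured, 1.09 at the aged mix and 1.32 at the young mix. Tagln had 1.58, 0.96 and 1.15, and Myl9 1.71, 1.06 and 1.30. Cnn1 was split by the choice of mix: 1.94 as measured, 0.98 at the aged and 1.51 at the young mix. Actg2, Myh11 and Des turned to the other side of 1. Actg2 had 1.52 as measured, 0.71 at the aged and 0.76 at the young mix, Myh11 1.41, 0.65 and 0.84, and Des 1.59, 0.70 and 0.96. Clusters made without the 10 genes gave sums of 1.01 at the aged and 1.11 at the young mix, with Des at 0.79 and 1.11. The finer split gave sums of 0.98 and 1.04, Acta2 at 1.06 and 1.16 and Cnn1 at 0.90 and 1.09. These values rest on 66, 23 and 21 young cells in clusters 3, 7 and 9.

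**Figure D5:**
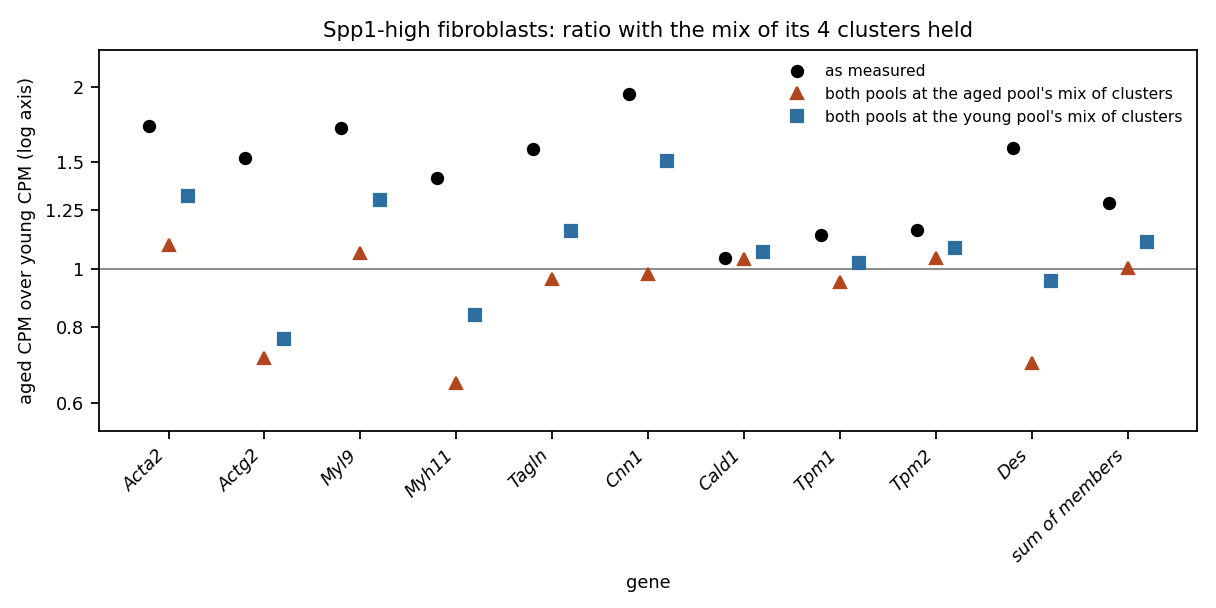
Aged over young ratio of CPM in Spp1-high cells (vertical, log axis) for each gene and their sum. Circles are as measured. Triangles give both pools the aged pool's mix of the 4 clusters by UMIs, and squares the young pool's mix. Acta2 lies at 1.73 as measured and at 1.09 and 1.32 with the mix held, and Actg2, Myh11 and Des lie below 1 with it held.

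The clusters themselves had opposite directions, which 1 library a pool does not allow to be tested. In cluster 0 (172 aged and 215 young cells) Acta2 had 770 and 401 CPM, a ratio of 1.92, Tagln 776 and 472 CPM (1.65), Myl9 109 and 54.5 CPM (2.00) and Cnn1 34.5 and 6.14 CPM (5.61, 4.33 to 7.36). These were 4 of 7 measured genes, where 0.537% of the genes measured in the cluster passed 1.5-fold upwards and 0.322% downwards. All 10 ratios were above 1, as were those of 54.4% of the genes. Cald1, Tpm1 and Tpm2 had ratios of 1.10, 1.12 and 1.13. A single aged cell held 19.1% of the cluster's Acta2 UMIs, 20.6% of Myl9, 34.4% of Cnn1 and 10.6% of Tagln. It held no Actg2 or Des UMI, and 74.8% of Actg2 and 92.1% of Des lay in the top cell of each of those genes. Without the top cell of each gene in each pool the ratios were 1.74 for Acta2, 1.60 for Tagln, 1.75 for Myl9 and 4.08 for Cnn1, and Actg2 turned to 0.59. At a finer split of the stroma, cluster 0 fell into several groups. In the counterpart with 98 aged and 116 young cells, Acta2 had a ratio of 1.48, Tagln 1.32 and Myl9 1.43, and Cnn1 alone of the 10 passed as measured and higher, at 3.05. Another Spp1-high group of that split, low in Col1a1 at 639 CPM, had 48 aged and 64 young cells. There Acta2 stood at 198 and 81.1 CPM, Tagln at 259 and 159 CPM and Myl9 at 41.3 and 23.4 CPM.

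In cluster 3 (116 aged and 66 young cells) all 10 ratios were below 1, where 55.0% of the genes measured in it were. Acta2 had 3046 CPM in the aged and 3709 CPM in the young pool (0.82), Tagln 3622 and 4245 CPM (0.85), Actg2 600 and 850 CPM (0.71) and Myl9 512 and 622 CPM (0.82). Cnn1 (0.59), Myh11 (0.47) and Des (0.60) passed 1.5-fold downwards and 0 upwards, where 2.91% and 1.99% of the measured genes did. The young pool has fewer than the 100 cells set for a comparison here, so these are values only. Over cells with 1 hashing tag, 85 aged and 39 young, Acta2 had a ratio of 1.08, Actg2 1.24 and Cnn1 0.96. Of 10 alternatives, that over tagged cells was the one with Acta2 and Actg2 above 1. Tpm2 was below 1 in 8 of them, and the remaining 7 genes were below 1 in 10 of 10. Myh11 and Des stayed at 1.5-fold lower in 9, the tagged cells being the exception.

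Cluster 7, led by Pgf, Mcpt8 and Mmp10, had 48 aged and 23 young cells. Acta2 stood there at 2041 and 2100 CPM and Tagln at 2615 and 4157 CPM. Cluster 9 had Acta2 at 1321 and 896 CPM and Tagln at 1960 and 1132 CPM. Those values rest on 27 aged and 21 young cells. Of the aged cells, 2 held 50% of the Acta2 UMIs and 3 that of Tagln. After thinning, Acta2 was found in 46.2% of aged and 42.9% of young cells of cluster 9, and Tagln in 57.7% and 42.9%. By CPM, clusters 0 and 9, both low in Col1a1, were thus higher in the aged pool for both genes. Clusters 3 and 7, with more Col1a1, were not. For Acta2 in cluster 7 this depended on the split. At the finer split the group led by Pgf, Mcpt8 and Mmp10 had 53 aged and 26 young cells. Acta2 stood there at 3009 and 2193 CPM and Tagln at 3259 and 4089 CPM.

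Depth moved with these groups. Median UMIs per cell were 31826 in aged and 39966 in young Spp1-high cells, 48205 and 51754 in cluster 0, and 21598 and 18054 in cluster 3. Its part in the ratios was not tested beyond the thinned shares. The thinned share of cells with Acta2 was 38.4% and 26.6% in cluster 0, and 74.6% and 76.9% in cluster 3. Of the Spp1-high cells with 1 hashing tag, 275 of 279 in the aged pool carried 1 and the same tag, and 266 of 268 in the young pool another. No label says which animal a tag stands for, and the tags gave no second group of cells within a pool to compare.

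In Pi16/Dpt fibroblasts most of the set leaned lower in the aged pool. In them 0 of 5 measured genes were higher in the aged pool and 2 were lower, Myl9 at 18.4 and 31.0 CPM (0.59, 0.42 to 0.83) and Tpm2 at 49.1 and 76.5 CPM (0.64, 0.52 to 0.79). Of all genes measured in them, 1.78% were higher and 1.41% lower by 1.5-fold. Acta2 had 24.8 and 31.0 CPM (0.80, 0.58 to 1.10), Cald1 527 and 482 CPM (1.09) and Tpm1 217 and 224 CPM (0.97). Of the 8 genes with UMIs in both pools, 7 had ratios below 1, as did 55.6% of all measured genes, and the median log2 ratio of the 5 was -0.32, against -0.03 over all measured genes. The sums, 851 and 863 CPM, are mostly Cald1 and Tpm1. The Myl9 and Tpm2 differences rest on 75 and 71 UMIs for Myl9 and on 200 and 175 for Tpm2. Both genes were within 1.5-fold over tagged cells and at the finer split.

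The other fibroblasts, led by Reg1, C1qtnf3 and Cpxm2, had the opposite direction from the Spp1-high cells, a difference that was not tested. The young pool has fewer than 100 of these cells too, so these are values only. Acta2 stood at 453 CPM in 158 aged and 1028 CPM in 65 young cells (0.44, 0.41 to 0.47), Tagln at 570 and 1037 CPM (0.55) and Myl9 at 75.5 and 148 CPM (0.51). These 3 of the 6 measured genes lay at or beyond 1.5-fold downwards and 0 upwards, where 6.98% of all measured genes were lower and 4.16% higher. Of the 10 ratios 9 were below 1, as were those of 64.5% of the measured genes. The exception was Actg2, at 33 and 5 UMIs. Tpm1 had 628 and 891 CPM (0.71), Tpm2 319 and 354 CPM (0.90) and Cald1 1092 and 1380 CPM (0.79). After thinning, an Acta2 UMI was found in 21.5% of the aged and 49.2% of the young cells, and at least 5 of the 10 genes in 9.49% and 29.2%. Acta2, Tagln and Myl9 stayed at least 1.5-fold lower in 10 of 10 alternatives, with Acta2 between 0.37 and 0.59.

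The make-up of the other fibroblasts also differed between the pools. Clusters made without the 10 genes split off a group led by Nos2, Rasl11a and Pcsk5, with 51 aged and 4 young cells. The 10 genes summed there to 2197 CPM in the aged pool, against 4710 CPM in the 153 aged cells that were left in the main group. The main group had Acta2 at 964 CPM in the aged and 1276 CPM in 79 cells of the young pool. The mix of the 2 groups, again by UMIs, was then held equal. The ratio of Acta2, 0.59 under this clustering, was 0.67 at the aged and 0.74 at the young mix. Tagln, 0.57, was 0.74 and 0.67, Myl9, 0.67, was 0.88 and 0.87, and the sum, 0.71, was 0.84 and 0.81. The finer split made 3 groups, and its sum of 0.58 was 0.66 and 0.69 with their mix held, with Acta2 at 0.42 and 0.53. The ratios of Acta2, Tagln and Myl9 thus stayed below 1 but came closer to it. The mural list, the markers of pericytes fixed for the naming, summed to 672 CPM in the aged and 251 CPM in the young pool of the class. In the aged pool most of that was Ndufa4l2, at 473 and 71.2 CPM, while Rgs5 was at 0.871 and 0.660 CPM and Higd1b at 0 in both.

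In pericyte-like cells the 10 genes summed to 16744 CPM in 37 aged and 15402 CPM in 17 young cells. Acta2 had 5002 and 3084 CPM and Myl9 741 and 461 CPM, while Tagln had 3225 and 3701 CPM, Myh11 318 and 375 CPM and Cald1 3037 and 3586 CPM. Both pools have fewer than 100 such cells, so these are values only. Cycling stromal cells had Acta2 at 1532 CPM in 69 aged and 1242 CPM in 51 young cells, and Tagln at 1430 and 1292 CPM. Over all stromal cells together, 0 of 9 measured genes passed 1.5-fold in either direction, where 2.64% of measured genes were higher and 1.06% lower. Endothelial-like cells had Cald1 at 506 and 522 CPM, Tpm1 at 218 and 223 CPM and Acta2 at 43.8 and 59.0 CPM, and none of these 3 measured genes passed 1.5-fold (1.87% higher and 1.26% lower over all measured genes).

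Genes around the contractile apparatus were read from 8 further lists. Of genes of actin bundles and adhesions, 0 of 28 measured passed 1.5-fold in Spp1-high cells, with a median log2 ratio of 0.05. Actb, the cytoplasmic beta actin, had 8363 CPM in the aged and 8243 CPM in the young pool, Actg1, the gamma actin, 3879 and 4292 CPM, and Vim, the fibroblast intermediate filament, 4582 and 5019 CPM. Of regulators of contraction, 0 of 7 measured passed, with a median of 0.04. With 1.95% of all measured genes higher and 0.656% lower in these cells, counts of 0 are near the background and set neither list apart. Rhoa, the small GTPase that promotes contraction, had 584 and 623 CPM, and its kinases Rock2 and Rock1 had 303 and 294 CPM and 144 and 135 CPM. Srf, the transcription factor that drives these genes, and its cofactors Myocd, Mrtfa and Mrtfb were under the level set for measurement.

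Of 15 measured myofibroblast matrix genes, 6 were higher in Spp1-high cells of the aged pool and 0 lower, where 1.95% and 0.656% of all measured genes were, with a median log2 ratio of 0.52. Postn, the matrix protein periostin, had 501 and 266 CPM (1.88), and Col11a1, a fibrillar collagen, 90.1 and 40.2 CPM (2.24). Of 17 measured genes of TGF-beta input and targets, 3 were higher: Ccn2 at 435 and 206 CPM (2.11), Tgfb3 at 26.0 and 13.1 CPM (1.98) and Thbs1, which can activate latent TGF-beta, at 472 and 292 CPM (1.62). Matrix genes were also higher in the aged pool in leukocytes, though Fn1, a gene of the list, is also among the monocyte markers used here. In macrophage-like cells 4 of 5 measured were higher, where 0.728% of all measured genes were, with a median log2 ratio of 0.95, and in neutrophil-like cells 4 of 5, where 0.491% were, with a median of 0.97. Col1a1, for one, stood at 58.0 and 29.5 CPM in neutrophil-like cells. The list summed to 948 and 830 CPM in macrophage-like and to 384 and 218 CPM in neutrophil-like cells. The part of RNA from other cells in the Spp1-high values was not tested. In clusters 0 and 3 taken alone, few of these genes were apart, as were few of all measured genes. In cluster 0, 0 of 14 measured matrix genes and 0 of 15 TGF-beta genes passed 1.5-fold, with Postn at 56.3 and 39.6 CPM and Ccn2 at 168 and 124 CPM. There 0.537% of all measured genes were higher and 0.322% lower, so counts of 0 are near the background. In cluster 3, 0 matrix genes were higher and 1 was lower of 16, with Postn at 1923 and 2150 CPM, where 1.99% of measured genes were higher and 2.91% lower. Of 17 TGF-beta genes there, Ltbp2, a matrix protein related to the binders of latent TGF-beta, was higher, at 155 and 95.7 CPM, and Ccn2 and Tgfb2 were lower, at 363 and 616 CPM and at 95.2 and 146 CPM. In the 27 aged and 21 young cells of cluster 9, 6 of 12 matrix genes were lower, with a median of -0.73, where 10.1% of the measured genes were lower. Holding the mix was not repeated for these lists.

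The mural and smooth muscle lists summed lower in Spp1-high than in pericyte-like cells, and were unequal among the Spp1-high clusters. The mural list summed to 387 CPM in aged and 381 CPM in young Spp1-high cells, against 9970 and 7793 CPM in pericyte-like cells. Of its 11 genes, 4 were measured and 2 were higher in the aged pool, Cspg4 at 36.1 and 23.4 CPM and Pdgfrb at 111 and 70.4 CPM. Rgs5 was at 0.526 and 1.36 CPM and Higd1b had 0 and 1 UMI. Of all genes measured in Spp1-high cells, 1.95% were higher and 0.656% lower by 1.5-fold. The smooth muscle list without the 10 genes summed to 145 and 153 CPM, against 1908 and 1733 CPM in pericyte-like cells, with Casq2 at 0 in both pools and 1 of 3 measured genes lower, Sncg at 33.6 and 61.8 CPM. In cluster 7 alone, one of the contractile clusters, the mural list summed to 765 and 755 CPM and the smooth muscle list to 317 and 258 CPM. That cluster detected 3 pericyte and 4 smooth muscle markers, against 10 and 5 in the pericyte-like cluster, and Cspg4 was among its leading genes, at 159 and 197 CPM, while Rgs5 had 1 and 0 UMIs. Their part in the result was not tested. Over all Spp1-high cells, myoepithelial markers summed to 1.35 and 1.07 CPM, with Krt14 and Krt5 at 0 in both pools. Of skeletal muscle markers, Acta1, the skeletal muscle actin, was the one measured, at 52.2 and 77.0 CPM. The skeletal muscle list summed to 56.5 and 80.9 CPM, against 7.36 and 4.12 CPM in pericyte-like cells. It was unequal too, with 169 and 556 CPM in cluster 7 and 24.9 and 463 CPM in cluster 9.

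The levels of the 10 genes ran together across classes. Over 38 units, 19 classes or clusters in each of the pools, the Pearson correlation of log2(CPM + 1) with Acta2 was 0.971 for Tagln, 0.926 for Myl9, 0.901 for Tpm2, 0.899 for Cnn1 and 0.890 for Actg2, which were the 5 genes most like Acta2 of 10962. Cald1 and Des were the least alike pair of the set, at 0.553. The 5 genes most like the mean of the 10 were Ednra, the endothelin A receptor (0.913), Nexn, an actin-filament protein (0.907), Wnt5a, a secreted Wnt ligand (0.906), Foxs1, a forkhead transcription factor (0.904), and Jph2, a junctophilin of muscle (0.90). The units share libraries and a wide range of depth, and the clusters were made from these genes, so the values are a description.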

How the data were processed

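The 2 10x 3′ expression libraries, from the aged and the young matrix pool, were analysed with their hashing antibody counts. The deposited values are raw UMI counts per feature and barcode, made by the authors with Cell Ranger 6.0.0 on GRCh38 and mm10, per the submitters' processing notes. The barcodes had already been through the authors' cell calling. The series design says that 3 samples were sent for sequencing, and how these map to the pools is not given in the sources used here.

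A barcode with at least 90% of its gene UMIs on mouse genes was a mouse cell, kept with at least 500 UMIs, 300 genes and at most 20% mitochondrial UMIs. Scrublet scores of 0.25 or more removed 1184 aged and 1054 young mouse cells as doublets. The pools were joined uncorrected for batch and clustered (scanpy 1.11.5, leidenalg 0.10.2, 2000 variable genes, 30 components, resolution 1), and the stroma was split again at resolution 0.5. Classes were named from 22 marker sets. The second split, its resolution and its naming by Spp1 and Grem1 were chosen after seeing the data. Immune-led stromal clusters, 130 aged and 77 young cells with leading genes of leukocytes, were kept apart from the fibroblast classes. They are counted in the totals over all stromal clusters.

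UMIs were summed per class and pool and divided by the class total (CPM), with exact Poisson and binomial intervals. The depth per class was between 242896 and 14021287 UMIs in the stromal classes named in the report. A gene was measured at 20 CPM or more in the higher pool with 100 UMIs over both. Classes with fewer than 100 cells in a pool are given as values. The ratios, intervals and calls were tested on simulated data. edgeR 4.0.16 gave the TMM factors of 1 alternative. All 10 genes are named. Of each other list, the text draws on up to 2 measured genes at each end of the ratio in Spp1-high cells and the 3 highest in each fibroblast class, and those most like the 10. Mrtfa, Mrtfb, Myocd, Srf, Krt14, Krt5, Rgs5, Higd1b and Casq2 are added as defining genes, and Ltbp2 and Tgfb2 were named after their values were seen. The members and lists were chosen with earlier results of these data known.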

Additional observations from a re-analysis of the deposited data

Results flagged for a closer look

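Some of the genes had opposite directions between the pools in different fibroblasts. The aged over young ratio of Acta2 was 1.73 in Spp1-high cells and 0.441 in the other fibroblasts. For Tagln it was 1.58 in Spp1-high cells and 0.549 in the other fibroblasts. For Myl9 it was 1.71 in Spp1-high cells, 0.593 in Pi16/Dpt fibroblasts and 0.511 in the other fibroblasts. With 1 library a pool these differences were not tested, and the values of the other fibroblasts rest on 65 cells in the young pool and on a class whose make-up differed between the pools.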

How the results depend on the processing

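No paired analysis was possible because each pool is 1 expression library. Leaving out a replicate was not possible for the same reason.

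In Spp1-high cells the ratio of Acta2 ranged between 1.37 and 2.17 over 10 alternatives and stayed at 1.5 or more in 9 of them. Cnn1 did so in 10 of 10, Tagln and Myl9 in 9 and Actg2 in 7. The 5 genes higher there became 1 with every cell weighted alike and 0 at a limit of 2-fold. The 6 matrix genes became 1 and 1 under the same settings, and the 3 TGF-beta genes 1 at 2-fold. The 4 genes higher in cluster 0 became 1 in its closest counterpart at the finer split, and 1 at 2-fold. That counterpart has 98 aged and 116 young cells, against 172 and 215 in cluster 0. The 2 genes lower in Pi16/Dpt cells became 0 at the finer split, over tagged cells, at 100 CPM and at 2-fold. The finer split, the tagged cells, the held mixes and the alternatives for the other fibroblasts were added after seeing the data. The cause was not tested in any of these cases, apart from the stricter limits themselves.

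The summed ratio in Spp1-high cells, 1.29, was 1.19 with every cell weighted alike, 1.26 with median-of-ratios factors, 1.27 with TMM factors, 1.27 without the top cell of each gene, 1.30 at a mouse share of 0.98, 1.30 at the finer split, 1.31 without doublet removal, 1.31 with clusters made without the 10 genes, and 1.40 over tagged cells. The summed level of Spp1-high over Pi16/Dpt cells, 9.14 in the aged and 7.01 in the young pool, was 11.3 and 9.02 with every cell weighted alike, and 6.33 in the young pool over tagged cells. Over Cpxm1/Cxcl12 cells, 9.04 in the aged and 6.67 in the young pool, it was 10.7 and 8.13 with every cell weighted alike, and in the young pool 6.14 without doublet removal and 6.03 over tagged cells.

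The share of cells with Acta2 follows depth. In Spp1-high cells it was 44.5% and 33.0% at 1000 UMIs and 79.6% and 76.0% unthinned in the aged and young pools. In Pi16/Dpt cells it was 13.8% and 16.3% unthinned, and 1.42% in the young pool at 1000 UMIs. Myh11 and Des in cluster 0, at 76 and 38 UMIs in the aged pool and 11 and 5 in the young pool, are too shallow to give a stable ratio.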
